A study of Homo sapiens with 22 samples.

Results

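Axon guidance genes encode the ligands and receptors that steer growing axons and migrating cells. Semaphorins act through plexins, and the secreted class 3 semaphorins bind neuropilins as co-receptors. Ephrins bind Eph receptor tyrosine kinases on neighbouring cells, Slits bind Robo receptors, and netrins bind DCC and the UNC5 receptors. The same molecules shape vessels and other developing tissues and are also found in gliomas, the glial tumours of which glioblastoma is the most aggressive.

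The genes described here are those whose symbols belong to the semaphorin, plexin, neuropilin, ephrin, Eph, Slit, Robo, netrin, UNC5, RGM, SLITRK or LRFN families, with DCC and GAP43. They were chosen by symbol, not by level. Poly(A) RNA of 11 untreated human glioblastoma lines was sequenced, with 2 libraries per line and 22 in all, and the authors deposited 2 separate gene tables. The first covers KNS-42, LN-229, SNU-1105, U-138MG, U-87MG, KALS-1, LN-18 and T98G and holds 23 axon guidance genes of 2221. The second covers SNU-466, A-172 and AM-38 and holds 40 of 5383. In all, 54 axon guidance genes were listed among 6825 genes in either table, 9 of them in both, and the symbol rule matches 85 human genes. Every line was grown in serum, which made up 20% of the medium of AM-38 and 10% of that of each other line. The medium was DMEM for KNS-42, LN-229, LN-18 and A-172, EMEM for U-138MG, U-87MG, T98G and AM-38, and RPMI for SNU-1105, KALS-1 and SNU-466. Between lines grown in different media, which includes all 3 lines of the second table, line and medium cannot be told apart. Each line stands for a single tumour kept in culture. The labels do not say if the paired libraries of a line derive from independent cultures, and the p-values therefore describe library-to-library spread, which may be technical.

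Library totals ran from 16958669 to 21213215 reads. The fraction of a library's reads that fell on listed genes was 5.81% to 10.2% in the first table and 21.8% to 37.1% in the second. How the authors chose the listed genes is not stated: 99.3% of the first table differed at least 2-fold in mean FPKM between KALS-1, LN-18 and T98G together and the other lines, and 93.9% of the second between SNU-466 and the other lines. A listed gene is therefore one that varies, and counts of calls below are set beside the same count over all tested genes. The paired libraries were within 1.5-fold for 89.7% to 98.4% of the genes at 1 FPKM or more, except in SNU-1105 (76.5%) and T98G (56.6%). Among the axon guidance genes at that level, 8 of 12 in SNU-1105 and 3 of 6 in T98G were within 1.5-fold. The fit used a common estimate of spread per gene for all lines of a table. Standard errors and p-values involving T98G or SNU-1105 may therefore be too small. Of the glioma markers in the first table (VIM, PTPRZ1, SOX2 and FABP7), 4 were at 1 FPKM or more in KNS-42 and LN-229, 3 in SNU-1105 and 1 in each of the other lines, with FABP7 at 0 reads in U-138MG, KALS-1 and T98G. Of 8 glioma markers in the second table, 6 reached that level in SNU-466, 2 in A-172 and 1 in AM-38, with OLIG1 at 0 reads in A-172 and AM-38. In bulk RNA, fewer cells with a transcript and less of it per cell cannot be told apart.

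The DNA just upstream of 5 of these genes is shown because each set was highest in the same line: SEMA3C, SEMA3D and SEMA3E, which lie on chromosome 7 and were each highest in SNU-466, and EFNB2 and RGMA, which were each highest in KNS-42. Each run is the 250 bases before the annotated start on the gene's own strand, from RefSeq on GRCh38.p14. All 5 are on the minus strand, at chr7:80922390-80922639 (SEMA3C), chr7:85187057-85187306 (SEMA3D), chr7:83649140-83649389 (SEMA3E), chr13:106535663-106535912 (EFNB2) and chr15:93089212-93089461 (RGMA). Capitals mark ACGTG, the core of a hypoxia response element, in the semaphorin genes.
SEMA3C: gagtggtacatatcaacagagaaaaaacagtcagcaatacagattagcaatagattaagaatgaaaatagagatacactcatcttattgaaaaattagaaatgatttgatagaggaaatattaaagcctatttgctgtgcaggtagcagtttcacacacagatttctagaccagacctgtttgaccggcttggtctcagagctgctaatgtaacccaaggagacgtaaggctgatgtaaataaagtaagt
SEMA3D: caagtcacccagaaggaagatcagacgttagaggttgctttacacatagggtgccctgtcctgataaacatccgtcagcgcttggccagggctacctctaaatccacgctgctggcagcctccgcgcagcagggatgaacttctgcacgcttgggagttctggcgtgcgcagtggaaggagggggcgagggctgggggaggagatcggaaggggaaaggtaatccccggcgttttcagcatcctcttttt
SEMA3E: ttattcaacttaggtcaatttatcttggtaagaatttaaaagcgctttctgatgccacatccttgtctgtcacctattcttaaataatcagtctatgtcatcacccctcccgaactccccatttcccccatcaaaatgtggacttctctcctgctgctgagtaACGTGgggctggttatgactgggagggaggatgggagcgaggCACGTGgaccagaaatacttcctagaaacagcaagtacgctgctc
In the next pair of sequences capitals mark GGGCGG, the GC box bound by Sp-family factors, and both motifs were sought on both strands.
EFNB2: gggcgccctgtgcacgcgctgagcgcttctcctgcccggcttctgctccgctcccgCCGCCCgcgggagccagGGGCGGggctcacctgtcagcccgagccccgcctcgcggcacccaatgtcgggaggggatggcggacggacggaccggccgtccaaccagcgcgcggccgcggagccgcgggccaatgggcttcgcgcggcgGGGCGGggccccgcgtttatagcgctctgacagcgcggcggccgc
RGMA: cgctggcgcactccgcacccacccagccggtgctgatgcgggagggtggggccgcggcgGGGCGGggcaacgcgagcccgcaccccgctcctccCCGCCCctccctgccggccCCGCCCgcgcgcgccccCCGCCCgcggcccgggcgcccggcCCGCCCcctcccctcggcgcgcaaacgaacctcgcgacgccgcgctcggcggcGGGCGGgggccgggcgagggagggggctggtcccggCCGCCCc
ACGTG was matched 3 times in SEMA3E, where 2 of the matches overlap in a single CACGTG, and the letters do not occur in the windows of SEMA3C and SEMA3D. It stood in 18.7% of all 27305 promoters and in 6 of the 33 axon guidance promoters matched from the second table (18.2%). CACGTG also fits CANNTG, the E-box, which stood in 62.2% of all promoters and in 51.5% of those 33. GGGCGG was matched 3 times in EFNB2 and 7 times in RGMA, and stood in 42.3% of all promoters and in 13 of 20 axon guidance promoters matched from the first table (65%). The SEMA3C window had a GC content of 36.4% with 2 CpG, SEMA3D 57.6% with 13, SEMA3E 46.4% with 6, EFNB2 78.4% with 40 and RGMA 86.4% with 44. The median was 64.4% with 16.5 CpG over 46 axon guidance promoters and 58% with 11 over all. A match is a description of the letters, and no binding was measured.

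All 23 axon guidance genes of the first table differed among its lines, as did 99.7% of all genes tested there (edgeR quasi-likelihood test, Benjamini-Hochberg adjusted p under 0.05 and a highest line at least 2-fold over the lowest). The median log2 range between the highest and lowest line was 7.49 for the axon guidance genes and 4.71 for all tested genes. All 38 axon guidance genes tested in the second table differed as well, beside 98.1% of all genes. Their median log2 range was 3.84, beside 3.24 for all. EPHA10, an Eph receptor with a defective kinase, and SEMA5B, a transmembrane semaphorin, were too low to test, at 0.06 FPKM or less in every library. A stricter call in edgeR asked for a line that stood apart from every other line of its table, with an adjusted p under 0.05 and at least a 2-fold difference against each.

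Of the axon guidance genes in the first table, 9 were above every other line in some line (39.1%, beside 42.4% of all tested genes) and 6 were below every other line (26.1%, beside 10.9%). The numbers without LN-18 replicate 2 were 9 and 3. KNS-42 was above every other line for 4 of the 23 axon guidance genes tested, beside 7.97% of all tested genes. LN-18 was below every other line for 3 of the 23, beside 2.24% of all tested genes. LN-229 was below every other line for 0 of these genes, where edgeR called 0.191% of all tested genes, and LN-18 was above for 0, where it called 8.97%. The heat map of the first table shows all values by library.

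**Figure D1:**
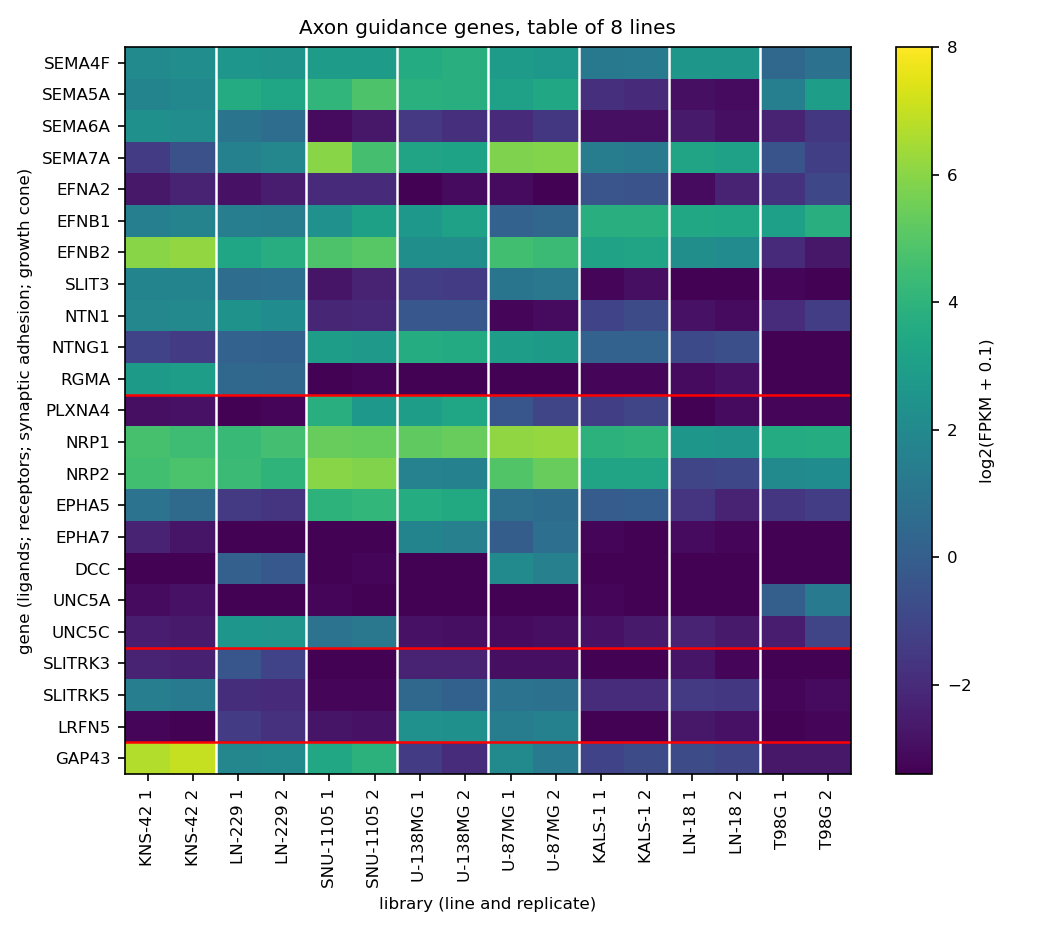
Level of the 23 axon guidance genes of the first table in both libraries of each of 8 lines, as log2(FPKM + 0.1) by colour, with ligands, receptors, synaptic adhesion genes and GAP43 parted by red lines. GAP43 and EFNB2 are brightest in KNS-42, the neuropilins are bright in most lines and dimmest in LN-18, and the columns of KALS-1, LN-18 and T98G hold the fewest bright cells.

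The secreted and membrane ligands at 1 FPKM or more in both libraries numbered 8 of 11 in KNS-42, 10 in LN-229, 6 in SNU-1105, 6 in U-138MG, 7 in U-87MG, 5 in KALS-1, 4 in LN-18 and 3 in T98G. FPKM relates reads to gene length and depth, so levels of different genes can be compared on this scale. The listed receptors at that level numbered 3 of 8 in KNS-42, 3 in LN-229, 5 in SNU-1105, 5 in U-138MG, 4 in U-87MG, 2 in KALS-1, 1 in LN-18 and 2 in T98G. Only 5 ligand and receptor pairs had both sides listed, so the counts of ligands and receptors are not of matched sets. Across all 23 genes the count was 12 to 14 in each of KNS-42, LN-229, SNU-1105, U-138MG and U-87MG, and 7, 5 and 5 in KALS-1, LN-18 and T98G. The share of all listed genes at that level ran from 25.8% in T98G to 37.2% in KNS-42. The axon guidance share was 30.4% in KALS-1, beside 31.6% of all listed genes, and 21.7% in T98G, beside 25.8%. In LN-18 it was 21.7%, beside 32.1%. In the other lines it lay above the share of all listed genes, at 52.2% to 60.9% beside 32.2% to 37.2%. The listed genes divide T98G, KALS-1 and LN-18 from the other lines, so all these counts are given as a description only. The epithelial markers KRT8, KRT18, KRT19 and CDH1 summed to 66.1 to 71.5 FPKM in KALS-1, 88.1 to 94.1 in LN-18 and 19.3 to 37.8 in T98G, and to 0.17 to 19.6 FPKM in the other lines. Their part in these counts was not tested.

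**Figure D2:**
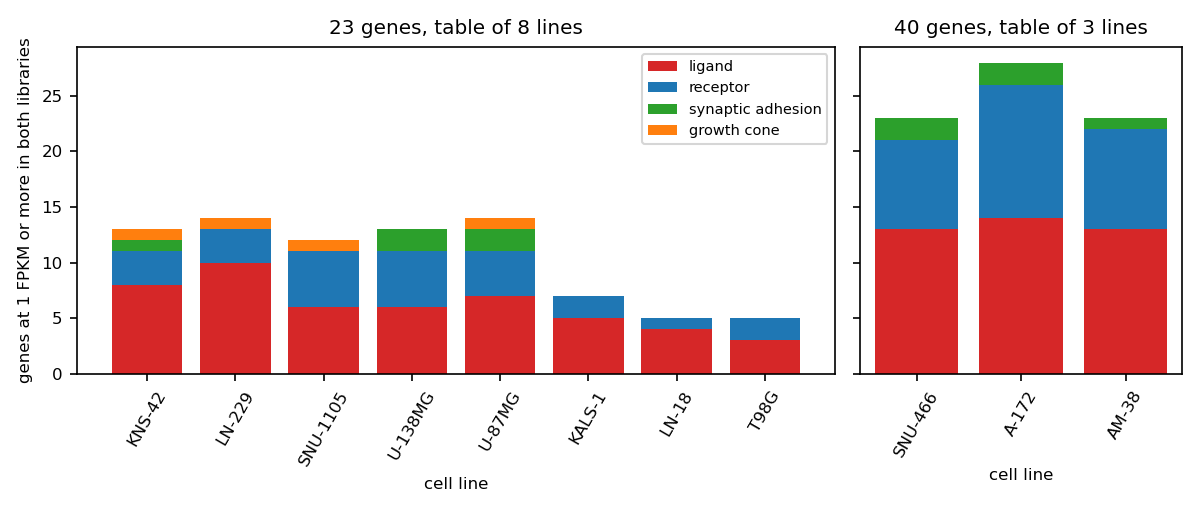
Number of axon guidance genes at 1 FPKM or more in both libraries of a line, stacked by role, for the 23 genes of the first table and the 40 of the second. LN-229 and U-87MG reach 14, LN-18 and T98G 5, and A-172 28 of 40.

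Among the semaphorins of the first table, SEMA7A, which is anchored to the membrane by a lipid and signals through a plexin and integrins, reached the highest level. Its libraries had 55.6 and 59.3 FPKM in U-87MG, 62.2 and 24.6 in SNU-1105, 9.52 and 9.12 in U-138MG, 9.35 and 8.64 in LN-18, 2.98 and 3.55 in LN-229, 2.63 and 2.3 in KALS-1, 0.64 and 0.31 in T98G and 0.28 and 0.58 in KNS-42. U-87MG and SNU-1105 lay above every other line, and the SNU-1105 libraries differed by more than 2-fold from each other. U-87MG and SNU-1105 did not pass the test against each other (log2 fold change 0.41 ± 0.33 (SE), edgeR adjusted p = 0.327), whereas SNU-1105 exceeded U-138MG (2.22 ± 0.35, edgeR adjusted p = 2.85e-05). Without SNU-1105 replicate 1, SEMA7A was above every other line in U-87MG (edgeR adjusted p = 0.0117).

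SEMA5A, a transmembrane semaphorin with thrombospondin repeats, had 17.1 and 27.7 FPKM in SNU-1105, 14.2 and 13.2 in U-138MG, 12 and 9.7 in LN-229, 8.57 and 10.5 in U-87MG, 2.74 and 7.89 in T98G, 3.29 and 3.7 in KNS-42, 0.18 and 0.14 in KALS-1 and 0.03 and 0.02 in LN-18. Only KALS-1 and LN-18 were under 1 FPKM, and both libraries of LN-18 lay below every other library. LN-18 was called below every other line, a share of 2.24% of all tested genes in LN-18, with a log2 fold change of -2.75 ± 0.61 relative to KALS-1 (edgeR adjusted p = 0.00705). The call was lost without KALS-1 replicate 1 (edgeR adjusted p = 0.0537), LN-18 replicate 1 (0.0601) or LN-18 replicate 2 (0.153). The 4 highest lines were not separated from their neighbours in the order: no adjusted p between SNU-1105, U-138MG, LN-229 and U-87MG in turn was under 0.0867 by edgeR.

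SEMA6A, a transmembrane semaphorin that binds A-type plexins, had 4.93 and 4.52 FPKM in KNS-42 and 1.9 and 1.48 in LN-229, and 0.25 FPKM or less in every other library. KNS-42 was above every other line, with a log2 fold change of 1.49 ± 0.33 over LN-229 (edgeR adjusted p = 0.0023), and 7.97% of all tested genes were called so in KNS-42. The call was lost without LN-229 replicate 2 (edgeR adjusted p = 0.0592). SEMA4F, another transmembrane semaphorin, had 12.3 and 13.4 FPKM in U-138MG and 1.26 and 1.78 in T98G, the highest and lowest lines, and 2.24 to 7.45 FPKM in the libraries of the other lines. It is the semaphorin of this table with the narrowest range and was called apart in no line.

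Both ephrin B genes, whose products are transmembrane ligands of Eph receptors, were above 1 FPKM in most lines but in different orders. EFNB2 had 62.2 and 70.3 FPKM in KNS-42, 28 and 32.4 in SNU-1105, 23.4 and 20.4 in U-87MG, 10.0 and 12.9 in LN-229, 8.93 and 9.51 in KALS-1, 4.68 and 4.58 in U-138MG, 4.54 and 4.15 in LN-18 and 0.14 and 0.06 in T98G. KNS-42 was above every other line (log2 fold change 1.13 ± 0.21 over SNU-1105, edgeR adjusted p = 0.000409) and T98G below every other (-5.43 ± 0.31 relative to LN-18, edgeR adjusted p = 9.13e-10, beside 3.63% of all tested genes below in T98G). With TMM or RLE scaling factors the KNS-42 difference fell just under 2-fold, at log2 0.91 and 0.94. Its exons overlap the opposite-strand gene AL138689.2 over 26.2% of their bases, and no source used here gives the strand setting of the counting.

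EFNB1 had 13.5 and 13.3 FPKM in KALS-1, 8.09 and 13.5 in T98G, 10.4 and 9.95 in LN-18, 6.22 and 8.59 in U-138MG, 5 and 8.44 in SNU-1105, 2.73 and 3.11 in KNS-42, 2.68 and 2.49 in LN-229 and 1.05 and 1.18 in U-87MG. The 3 highest lines for EFNB1 were the lines with few axon guidance genes at 1 FPKM, and the T98G libraries lay on both sides of those of LN-18 and KALS-1. U-87MG was below every other line (log2 fold change -1.21 ± 0.30 relative to LN-229, edgeR adjusted p = 0.0339, beside 1.05% of all tested genes). That call was lost without any single library of LN-229, U-87MG, KALS-1 or LN-18, or without KNS-42 replicate 2 (edgeR adjusted p 0.0645 to 0.376). The only A-type ephrin in this table, EFNA2, a lipid-anchored ligand, was at 0.67 FPKM or less in every library.

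NTN1, the secreted attractant that binds DCC and UNC5 receptors, had 5.36 and 4.32 FPKM in LN-229 and 3.54 and 3.75 in KNS-42, and 0.72 FPKM or less in every other library. These 2 lines were not separated (log2 fold change of LN-229 over KNS-42 0.41 ± 0.27, edgeR adjusted p = 0.223), and KNS-42 exceeded U-138MG (2.35 ± 0.29, edgeR adjusted p = 1.13e-06). NTNG1, a lipid-anchored relative of netrins found on axons, had 12.4 and 11.6 FPKM in U-138MG, 7.87 and 6.75 in SNU-1105, 7.65 and 6.9 in U-87MG, 1.03 and 1.04 in KALS-1, 1.05 and 1 in LN-229, 0.46 and 0.55 in LN-18 and 0.36 and 0.28 in KNS-42. T98G held 0 reads of NTNG1 in both libraries, was called below every other line (edgeR adjusted p = 3.67e-08) and lay at least 40.0-fold below KNS-42 and at least 1515-fold below U-138MG, counting 3 reads over its 2 libraries as the limit. SYT1, the only neuron marker listed, was likewise below every other line in T98G, at 0.01 and 0 FPKM, and its relation to NTNG1 was not tested.

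RGMA, a lipid-anchored repellent that binds neogenin, had 6.89 and 7.65 FPKM in KNS-42 and 1.24 and 1.2 in LN-229, and 0.04 FPKM or less elsewhere. KNS-42 was above every other line, by a log2 fold change of 2.57 ± 0.29 over LN-229 (edgeR adjusted p = 1.85e-06), and stood at least 1280-fold above U-138MG, which held 0 reads. SLIT3, a secreted ligand of Robo receptors, was also highest in KNS-42, at 3.22 and 3.23 FPKM, followed by 1.94 and 2.16 in U-87MG and 1.48 and 1.58 in LN-229. It was at 0.31 FPKM or less in the other lines. For SLIT3 the lead of KNS-42 over U-87MG was under 2-fold (log2 fold change 0.66 ± 0.26, edgeR adjusted p = 0.0353).

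GAP43, a protein of the growth cone rather than a ligand or receptor, showed the highest level of any axon guidance gene in this table. It had 104 and 128 FPKM in KNS-42, 10.5 and 14.9 in SNU-1105, 3.61 and 3.95 in LN-229, 4.11 and 2.47 in U-87MG, 0.49 and 0.4 in LN-18, 0.37 and 0.48 in KALS-1, 0.27 and 0.16 in U-138MG and 0.06 and 0.06 in T98G. Both KNS-42 libraries lay far above every other library, by a log2 fold change of 3.19 ± 0.27 over SNU-1105 (edgeR adjusted p = 5.19e-08), and the line was called above every other. LN-229 and U-87MG did not pass the test against each other (0.20 ± 0.27, edgeR adjusted p = 0.554), nor did LN-18 and KALS-1 (0.06 ± 0.41, edgeR adjusted p = 0.94).

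**Figure D3:**
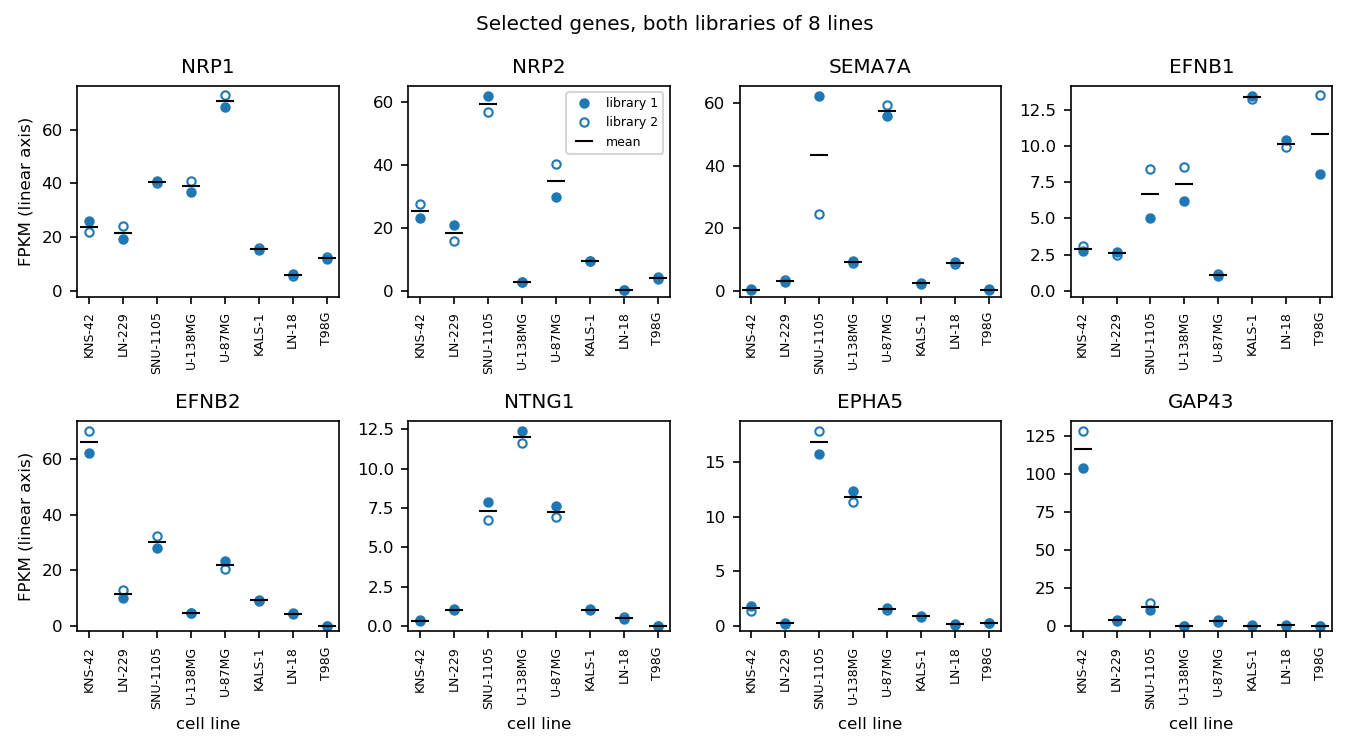
FPKM of 8 genes in both libraries of the 8 lines of the first table on linear axes, with filled points for library 1, open points for library 2 and a dash for the mean. GAP43 and EFNB2 peak in KNS-42, NRP1 in U-87MG at 68.4 and 72.8 FPKM, NRP2 in SNU-1105, and EFNB1 is lowest in U-87MG.

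A neuropilin was the highest receptor of the first table in every line. NRP1, which binds class 3 semaphorins and also vascular endothelial growth factor, had 68.4 and 72.8 FPKM in U-87MG, 40.9 and 40.1 in SNU-1105, 36.7 and 41 in U-138MG, 25.9 and 21.9 in KNS-42, 19.2 and 24.2 in LN-229, 15.1 and 15.8 in KALS-1, 12 and 12.6 in T98G and 6.15 and 5.56 in LN-18. SNU-1105 and U-138MG were not separated (log2 fold change 0.06 ± 0.18, edgeR adjusted p = 0.825), and neither were KNS-42 and LN-229 (0.14 ± 0.18, edgeR adjusted p = 0.551). LN-18 was below every other line, at -1.07 ± 0.18 relative to T98G (edgeR adjusted p = 0.000602). Without LN-18 replicate 2 that difference was 1.00 in size on the log2 scale, just under 2-fold, and the call was lost.

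NRP2, the other neuropilin, had 62 and 56.9 FPKM in SNU-1105, 29.9 and 40.3 in U-87MG, 23.3 and 27.6 in KNS-42, 20.8 and 15.8 in LN-229, 9.61 and 9.41 in KALS-1, 3.9 and 4.3 in T98G, 3.01 and 2.94 in U-138MG and 0.4 and 0.43 in LN-18. LN-18 was again below every other line, with both libraries under 0.5 FPKM and a log2 fold change of -2.84 ± 0.22 relative to U-138MG (edgeR adjusted p = 1.38e-07). U-138MG differed from the other high-NRP1 lines in holding NRP2 near the bottom of the order. With TMM factors NRP2 was also above every other line in SNU-1105 (edgeR adjusted p = 0.00579). Summed, the neuropilins reached 96.9 to 113 FPKM in SNU-1105 and U-87MG and 5.99 to 6.55 FPKM in LN-18. KDR, the endothelial receptor with which neuropilins form complexes, was at 9.38 and 15.6 FPKM in SNU-1105 and 6.83 and 6.33 in U-87MG, the same 2 lines, and at 0.10 FPKM or less in the others, and its part was not tested.

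PLXNA4, the only plexin of the first table and a signalling partner of neuropilins, had 13.6 and 6.37 FPKM in SNU-1105, 7.61 and 10.2 in U-138MG, 0.69 and 0.39 in U-87MG and 0.31 and 0.39 in KALS-1, and 0.04 FPKM or less elsewhere. SNU-1105 and U-138MG were not separated (log2 fold change 0.17 ± 0.32, edgeR adjusted p = 0.709), and U-138MG exceeded U-87MG (4.05 ± 0.37, edgeR adjusted p = 4.45e-08). The order of the 2 highest lines turned without SNU-1105 replicate 1 or without U-138MG replicate 1, at -0.48 and -0.03.

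Of the Eph receptors, EPHA5, a receptor of A-type ephrins on neurons, had 15.7 and 17.9 FPKM in SNU-1105 and 12.4 and 11.3 in U-138MG. It had 1.85 and 1.36 FPKM in KNS-42, 1.66 and 1.43 in U-87MG and 0.85 and 0.92 in KALS-1, and 0.30 FPKM or less in the other lines. The lines that held PLXNA4 above 1 FPKM were thus the lines with EPHA5 above 10 FPKM. SNU-1105 and U-138MG did not pass the test against each other (log2 fold change 0.50 ± 0.23, edgeR adjusted p = 0.0768), and U-138MG exceeded KNS-42 (2.88 ± 0.25, edgeR adjusted p = 9.81e-09). EPHA7, another receptor of that class, had 3.2 and 2.85 FPKM in U-138MG and 0.87 and 1.59 in U-87MG, 0.11 or less elsewhere, and 0 reads in LN-229 and T98G. U-138MG was above every other line (1.3 ± 0.36 over U-87MG, edgeR adjusted p = 0.0281, beside 3.58% of all tested genes). The call was lost in DESeq2 (adjusted p = 0.0704) and limma (0.129), and without U-138MG replicate 1 (edgeR adjusted p = 0.188), U-138MG replicate 2 (0.103) or U-87MG replicate 1 (0.393).

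Each of the 3 netrin receptors was called above every other line in a different line, where 42.4% of all tested genes were called above in some line. DCC, which mediates attraction to netrin, had 4.02 and 2.84 FPKM in U-87MG and 0.96 and 0.74 in LN-229. In KNS-42, KALS-1, LN-18 and T98G it had 0 reads, at least 541-fold to 586-fold below U-87MG, and the remaining lines had 0.01 FPKM or less. The log2 fold change of U-87MG over LN-229, the next line, was 2.01 ± 0.30. U-87MG was called above every other line (edgeR adjusted p = 0.000244, beside 5.11% of all tested genes above in U-87MG). UNC5C, a receptor for repulsion, had 5.89 and 5.74 FPKM in LN-229, 1.81 and 2.17 in SNU-1105, 0.08 and 0.39 in T98G, and 0.10 or less elsewhere. The log2 fold change of LN-229 over SNU-1105, the next line, was 1.55 ± 0.37. LN-229 was called above every other line (edgeR adjusted p = 0.00767, beside 3.96% of all tested genes above in LN-229). That call was lost in limma (adjusted p = 0.0981) and without LN-229 replicate 1 (edgeR adjusted p = 0.0764), LN-229 replicate 2 (0.0513) or SNU-1105 replicate 1 (0.0639). UNC5A, of the same family, had 0.95 and 2.46 FPKM in T98G, whose libraries differ by over 2-fold, and 0.04 FPKM or less in every other line. The log2 fold change of T98G over KNS-42, the next line, was 5.77 ± 0.69. T98G was called above every other line (edgeR adjusted p = 3.29e-05, beside 3.96% of all tested genes above in T98G).

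The synaptic adhesion genes were low. SLITRK5, a transmembrane protein of synapses, had 2.68 and 2.42 FPKM in KNS-42, 1.84 and 1.71 in U-87MG, 1.24 and 1.01 in U-138MG and 0.26 or less elsewhere. LRFN5, a synaptic adhesion protein, had 5.04 and 4.85 FPKM in U-138MG, 2.6 and 2.91 in U-87MG, and 0.29 or less elsewhere. SLITRK3 had 0.69 and 0.36 FPKM in LN-229 and 0.11 or less elsewhere. LN-229 was called above every other line for SLITRK3 (log2 fold change 2.18 ± 0.50 over U-138MG, edgeR adjusted p = 0.00773). The call was lost in DESeq2 (adjusted p = 0.193) and without LN-229 replicate 1, KNS-42 replicate 2, U-138MG replicate 1 or U-138MG replicate 2 (edgeR adjusted p = 0.176, 0.0541, 0.0789 and 0.0816).

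SNU-1105 and KALS-1 were apart from every other line for 0 axon guidance genes in either direction. Of all tested genes edgeR called 0.621% above and 0% below in SNU-1105, and 8.21% above and 1.62% below in KALS-1. By mean FPKM SNU-1105 was the highest line for 4 of 23 genes (17.4%), NRP2, PLXNA4, SEMA5A and EPHA5, and for 4.77% of all listed genes. Its lead over the next line did not pass the test for PLXNA4, SEMA5A and EPHA5 (edgeR adjusted p = 0.709, 0.0867 and 0.0768). For NRP2 the lead was under 2-fold (log2 fold change 0.76 ± 0.19 over U-87MG, edgeR adjusted p = 0.0027). LN-18 was highest for 0 of the 23 and for 16.7% of all listed genes.

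**Figure D4:**
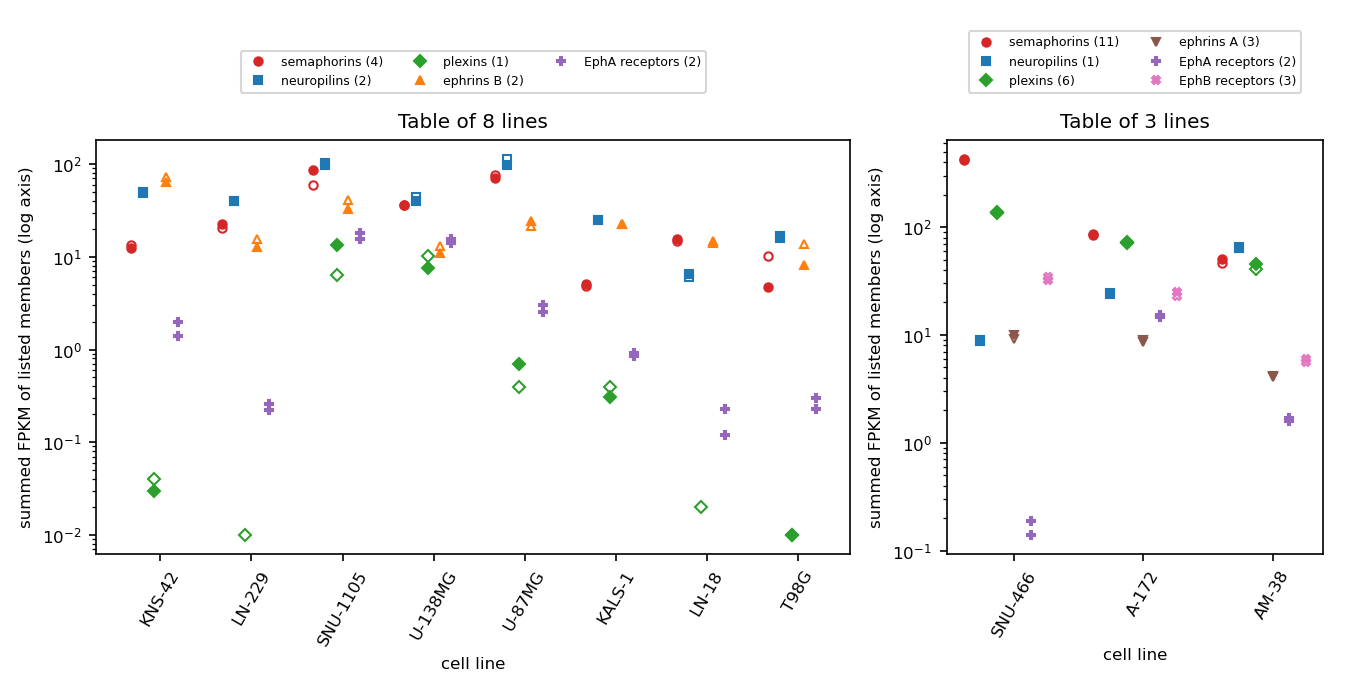
Summed FPKM of the listed members of each receptor and ligand family per library on a log axis, with filled points for library 1, open points for library 2 and the number of members in brackets; sums of 0 are not drawn. The semaphorin sum is 420 and 426 FPKM in SNU-466, and LN-18 has the lowest neuropilin sum of the first table, at 6.55 and 5.99 FPKM.

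Of 38 axon guidance genes tested in the second table, 21 were above every other line in some line (55.3%, beside 64.8% of all tested genes) and 28 were below (73.7%, beside 60.7%). SNU-466 was above for 14 of the 38, beside 32.3% of all tested genes, and below for 15 of the 38, beside 45.9%. The listed genes mostly divide SNU-466 from the other lines. A-172 was above for 4 of the 38, beside 13.1% of all tested genes, and below for 2, beside 4.41%. AM-38 was above for 3 of the 38, beside 19.4% of all tested genes, and below for 11, beside 10.4%. PLXNB2, RGMB, SEMA3A and SEMA4C stood apart in no line. In SNU-466 fibroblast and mural markers summed to 1245 and 1250 FPKM, against 30.9 and 29.7 in A-172 and 22.4 and 22.0 in AM-38, glioma markers to 1266 and 1273, against 63.9 and 61.3 in A-172 and 25.7 and 26.3 in AM-38, and keratins to 0.21 and 0.22, against 474 and 454 in A-172 and 116 and 107 in AM-38. Single markers did not all follow these sums: RGS5, a mural marker, was called below in SNU-466 and above in A-172, and BCAN, a glioma marker, above in A-172. The 6 neuron markers listed summed to 110 and 111 FPKM in A-172, 15.5 and 15.5 in AM-38 and 16.7 and 16.8 in SNU-466. Among them NEFL was called above in A-172, and SNAP25 and MAP2 above in SNU-466. The part of these markers in the differences below was not tested.

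**Figure D5:**
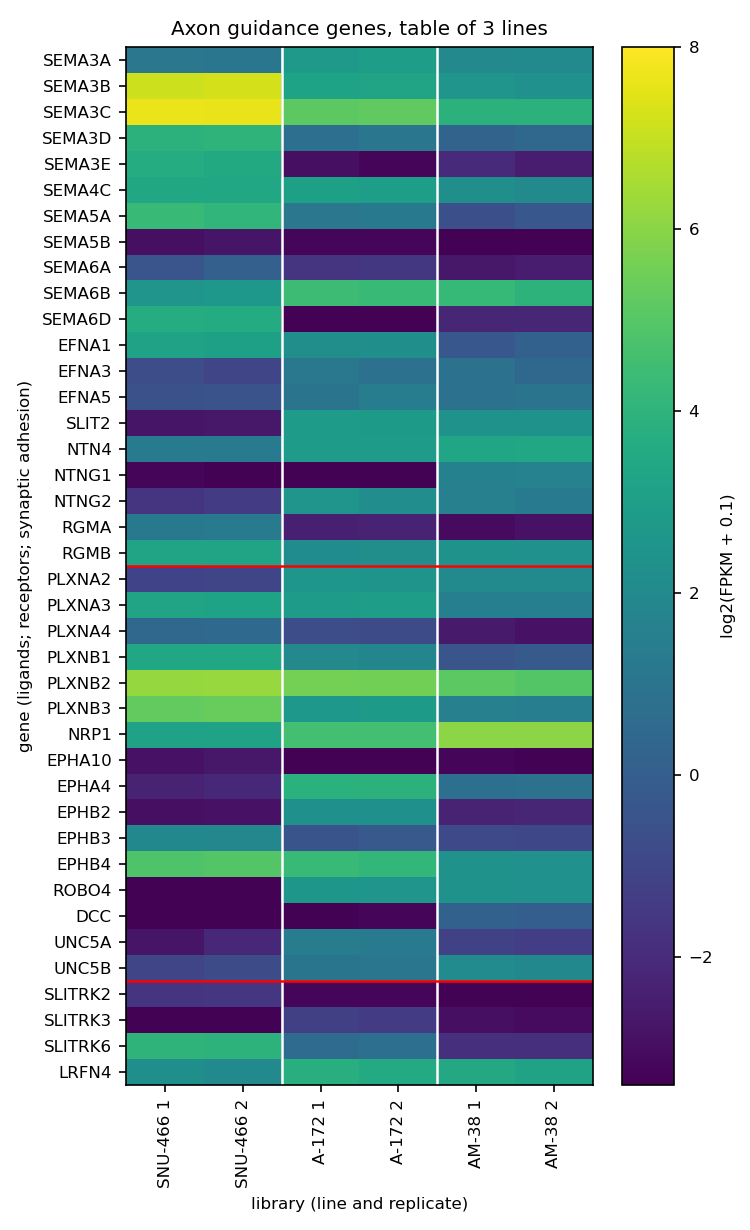
Level of the 40 axon guidance genes of the second table in both libraries of SNU-466, A-172 and AM-38, as log2(FPKM + 0.1) by colour, with ligands, receptors and synaptic adhesion genes parted by red lines. SEMA3B and SEMA3C are the brightest cells, in SNU-466, and ROBO4, SLIT2 and EPHB2 are dark there.

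The semaphorins made the largest group. Of 10 tested, 7 were above both other lines in SNU-466 and 1 was below, beside 32.3% and 45.9% of all tested genes. Together the 11 listed semaphorins summed to 420 and 426 FPKM in SNU-466, against 84.7 and 86.3 in A-172 and 50.1 and 46.1 in AM-38. SEMA3C, a secreted semaphorin that acts on neurons and in heart development, had 202 and 198 FPKM in SNU-466, against 35.1 and 37.6 in A-172 and 15.2 and 15.1 in AM-38. SEMA3B, a secreted semaphorin first known as a candidate tumour suppressor, had 141 and 152 FPKM in SNU-466, against 9.2 and 9.39 in A-172 and 5.65 and 5.03 in AM-38. The libraries of SNU-466 lay above all others for both genes, with log2 fold changes over A-172 of 2.46 ± 0.04 for SEMA3C and 3.98 ± 0.05 for SEMA3B (edgeR adjusted p = 1.56e-64 and 7.16e-74).

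SEMA3D and SEMA3E, on the same chromosome as SEMA3C, were also called above in SNU-466. SEMA3D had 15.3 and 15.9 FPKM in SNU-466, against 1.58 and 1.99 in A-172 and 1.06 and 1.22 in AM-38. SEMA3E, which binds plexin D1 without a neuropilin, had 12.4 and 11.6 FPKM in SNU-466, against 0.15 and 0.08 in AM-38 and 0.03 and 0.01 in A-172. The log2 fold changes of SNU-466 over the next line were 3.12 ± 0.08 for SEMA3D and 6.66 ± 0.14 for SEMA3E (edgeR adjusted p = 2.28e-51 and 3.16e-59). SEMA3A, which lies in the same region and is the classical growth cone repellent, ran the other way, at 2.1 and 2.02 FPKM in SNU-466, against 3.77 and 4.06 in AM-38 and 6.72 and 7.79 in A-172. SNU-466 missed the 2-fold threshold for SEMA3A against AM-38 and was called below every other line with TMM or RLE factors (edgeR adjusted p = 2.7e-20 and 3.58e-58). In GENCODE 29 on GRCh38 the 4 genes lie on the minus strand at chr7:80742538-80922359 (SEMA3C), chr7:83363238-83649113 (SEMA3E), chr7:83955777-84492724 (SEMA3A) and chr7:84995553-85186855 (SEMA3D), so SEMA3A lies between SEMA3E and SEMA3D. SEMA3B lies elsewhere, at chr3:50267558-50277546.

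Transmembrane semaphorins also differed. SEMA6D had 12.4 and 12.2 FPKM in SNU-466, against 0.12 and 0.12 in AM-38 and 0 reads in A-172, which lay at least 13.8-fold below AM-38 and at least 1386-fold below SNU-466. SEMA5A had 19.1 and 17.1 FPKM in SNU-466, against 2.09 and 2.23 in A-172 and 0.56 and 0.72 in AM-38. SEMA6A was lower, with 0.67 and 0.96 FPKM in SNU-466, against 0.21 and 0.24 in A-172 and 0.06 and 0.08 in AM-38. All 3 were called above in SNU-466, and SEMA6D was called below in A-172. SEMA6B, a ligand of A-type plexins, was called below every other line in SNU-466, with 5.65 and 6.34 FPKM, against 18.9 and 15.7 in AM-38 and 21.4 and 19.4 in A-172 (log2 fold change -1.53 ± 0.08 relative to AM-38, edgeR adjusted p = 1.11e-31). SEMA4C, a ligand of plexin B2, was at 4.01 to 10.5 FPKM in all 6 libraries.

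Plexins, the semaphorin receptors, had 3 of 6 above in SNU-466, 1 below there, and 4 of 6 below in AM-38. Of all tested genes, 32.3% were above and 45.9% below in SNU-466, and 10.4% were below in AM-38. PLXNB3, a receptor of SEMA5A, had 38.3 and 40.4 FPKM in SNU-466, against 6.3 and 6.87 in A-172 and 2.9 and 2.7 in AM-38. PLXNB1, a receptor of class 4 semaphorins, had 10.8 and 10.7 FPKM in SNU-466, against 3.84 and 3.42 in A-172 and 0.67 and 0.78 in AM-38. Both were called above in SNU-466 (log2 fold changes over A-172 of 2.58 ± 0.06 and 1.57 ± 0.07, edgeR adjusted p = 5.2e-56 and 6.27e-34) and below in AM-38. The exons of PLXNB3 overlap the same-strand gene SRPK3 over 20.4% of their bases. PLXNB2, the receptor of SEMA4C, was the highest plexin in every line, with 74.2 and 76.4 FPKM in SNU-466, 49.7 and 47.8 in A-172 and 34.9 and 30.7 in AM-38, and its steps between lines were under 2-fold.

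PLXNA2, a receptor of class 6 semaphorins, moved against the B plexins, with 0.36 and 0.39 FPKM in SNU-466, against 4.07 and 4.01 in AM-38 and 5.97 and 5.63 in A-172 (log2 fold change -3.44 ± 0.10 relative to AM-38, edgeR adjusted p = 3.82e-47). PLXNA4 had 1.26 and 1.31 FPKM in SNU-466, against 0.52 and 0.48 in A-172 and 0.07 and 0.04 in AM-38. PLXNA3, a receptor partner of neuropilins, had 2.75 and 2.77 FPKM in AM-38, against 7.16 and 7.5 in A-172 and 9.53 and 9.18 in SNU-466, and was called below in AM-38. The co-receptor NRP1 had the opposite order, with 64.1 and 64.8 FPKM in AM-38, against 24.3 and 24 in A-172 and 8.82 and 8.88 in SNU-466. AM-38 was above and SNU-466 below every other line for NRP1 (log2 fold changes 1.42 ± 0.04 over A-172 and -1.45 ± 0.05 relative to A-172, edgeR adjusted p = 7.08e-47 and 4.9e-45). SNU-466 thus had the highest levels of SEMA3B, SEMA3C, SEMA3D and SEMA3E and the lowest level of NRP1.

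Eph receptors differed by member. EPHA4, a receptor that binds both ephrin classes, had 14.7 and 15.2 FPKM in A-172, against 1.59 and 1.68 in AM-38 and 0.1 and 0.13 in SNU-466. EPHB2, a receptor of B-type ephrins and of EFNA5, had 4.92 and 4.97 FPKM in A-172, against 0.11 and 0.12 in AM-38 and 0.03 and 0.04 in SNU-466. A-172 was above and SNU-466 below every other line for both (log2 fold changes of A-172 over AM-38 3.19 ± 0.08 and 5.38 ± 0.14, edgeR adjusted p = 4.21e-51 and 1.69e-52). EPHB3 had 3.71 and 3.61 FPKM in SNU-466, against 0.63 and 0.76 in A-172 and 0.44 and 0.42 in AM-38, and was called above in SNU-466. EPHB4, the receptor of ephrin B2, had 5.38 and 5.05 FPKM in AM-38, against 19.2 and 17.4 in A-172 and 28.6 and 31.1 in SNU-466, and was called below in AM-38 (-1.81 ± 0.06 relative to A-172, edgeR adjusted p = 1.62e-41). B-type ephrins, the ligands of these EphB receptors, were not analysed here in these lines.

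Of the 3 A-type ephrins, 2 were called below in SNU-466 and 1 in AM-38, beside 45.9% and 10.4% of all tested genes. EFNA1 had 0.7 and 1 FPKM in AM-38, against 4.59 and 4.79 in A-172 and 8.99 and 8.26 in SNU-466, and was called below in AM-38. EFNA5 had 0.58 and 0.61 FPKM in SNU-466, against 1.74 and 1.87 in AM-38 and 1.88 and 2.57 in A-172. EFNA3 had 0.52 and 0.39 FPKM in SNU-466, against 1.7 and 1.24 in AM-38 and 2.13 and 1.71 in A-172. EFNA5 and EFNA3 were called below in SNU-466 (log2 fold changes relative to AM-38 of -1.60 ± 0.17 and -1.70 ± 0.32, edgeR adjusted p = 4.94e-14 and 1.02e-06). EFNA3 shares 44.7% of its exon bases with the same-strand gene AL691442.1, so its count is uncertain.

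The Slit and Robo genes of this table were at or near 0 in SNU-466. SLIT2, the repellent for commissural axons, had 0.05 and 0.06 FPKM in SNU-466, against 5.32 and 5.46 in AM-38 and 7.04 and 7.03 in A-172 (log2 fold change -6.55 ± 0.15 relative to AM-38, edgeR adjusted p = 1.83e-55). ROBO4, the Robo of blood vessels, had 0 reads in SNU-466, against 5.19 and 5.04 FPKM in AM-38 and 6.08 and 5.77 in A-172, at least 413-fold and 478-fold lower in SNU-466. The endothelial markers CDH5, TEK and PECAM1 summed to 0 and 0.01 FPKM in SNU-466, against 1.12 and 0.94 in AM-38 and 2.43 and 2.54 in A-172, with CDH5 and TEK at 0 reads in SNU-466, and their part was not tested.

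Of 6 netrin ligands and receptors, 4 were called below every other line in SNU-466 (NTN4, NTNG2, UNC5A and UNC5B), beside 45.9% of all tested genes. NTN4, a netrin of basement membranes, had 2.42 and 2.28 FPKM in SNU-466, against 7.17 and 7.18 in A-172 and 9.99 and 10.4 in AM-38. NTNG2, a lipid-anchored netrin relative, had 0.22 and 0.27 FPKM in SNU-466, against 2.84 and 2.25 in AM-38 and 5.75 and 4.41 in A-172. UNC5B, the UNC5 receptor of vessels, had 0.4 and 0.49 FPKM in SNU-466, against 1.96 and 2.04 in A-172 and 4.13 and 3.64 in AM-38. All 3 were called below in SNU-466. UNC5B was also called above in AM-38 with TMM or RLE factors or without AM-38 replicate 2, and NTNG2 above in A-172 without A-172 replicate 2 or AM-38 replicate 1. UNC5A had 2.61 and 2.32 FPKM in A-172, against 0.34 and 0.3 in AM-38 and 0.05 and 0.13 in SNU-466, and was called above in A-172 and below in SNU-466. NTNG1 and DCC were called above in AM-38, with 2.97 and 3 FPKM of NTNG1 and 0.99 and 0.91 of DCC in AM-38, and 0.01 FPKM or less of either in the other lines.

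RGMA had 2.2 and 2.47 FPKM in SNU-466, against 0.09 and 0.1 in A-172 and 0.02 and 0.04 in AM-38 (log2 fold change 4.61 ± 0.17 over A-172, edgeR adjusted p = 1.68e-41). RGMB, a relative that also binds neogenin, had 9.6 and 9.54 FPKM in SNU-466, 5.33 and 5.03 in AM-38 and 4.32 and 4.53 in A-172, within 2-fold between neighbours, and shares 40.2% of its exon bases with the opposite-strand gene AC008522.1. SLITRK6, a transmembrane protein needed in the inner ear, had 16 and 15.5 FPKM in SNU-466, against 1.39 and 1.62 in A-172 and 0.18 and 0.18 in AM-38, and was called above in SNU-466 and below in AM-38. LRFN4 had 4.76 and 4.09 FPKM in SNU-466, against 10.9 and 9.02 in AM-38 and 13.9 and 11.9 in A-172, was called below in SNU-466 and overlaps PC on the opposite strand over 22% of its exon bases. SLITRK2 and SLITRK3 were at 0.32 FPKM or less in every library. For SLITRK3 the SNU-466 call rested on 0 reads against 5 in AM-38, and was lost without AM-38 replicate 1 (edgeR adjusted p = 0.0838), SNU-466 replicate 1 (0.0765) or SNU-466 replicate 2 (0.0956).

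Ligand and receptor pairs with both sides listed were read off per line. The pairs include SLIT2 with ROBO4, for which direct binding is not taken here as established. In the first table, with 5 such pairs, both sides were at 1 FPKM or more in 1 pair, NTN1 with UNC5C, and in LN-229 alone. NTN1 was above that level in KNS-42 without DCC, UNC5A or UNC5C, while DCC was above it in U-87MG without NTN1. SEMA6A was above it in KNS-42 and LN-229 and its receptor PLXNA4 in SNU-1105 and U-138MG, so the pair met in no line. In the second table, with 16 pairs, both sides were at that level in 11 pairs in A-172, 8 in AM-38 and 8 in SNU-466. SEMA3A, SEMA3B, SEMA3C and SEMA3D with NRP1, and SEMA4C with PLXNB2, were present on both sides in all 3 lines. SLIT2 with ROBO4 and an A-type ephrin with EPHA4 were so in A-172 and AM-38, EFNA5 with EPHB2 in A-172, SEMA6B with PLXNA2 in A-172 and AM-38, and SEMA6B with PLXNA4 in SNU-466. SEMA5A met PLXNB3 and PLXNA3 in A-172 and SNU-466. At 3 FPKM or more the pairs numbered 7 in A-172, 6 in AM-38 and 6 in SNU-466, and 1 in LN-229. Per line, 25.8% to 37.2% of listed genes in the first table and 44.7% to 50.5% in the second were at 1 FPKM or more. No share over all genes was computed for pairs, so the pair counts are a description only. Several pairs share a gene, such as NTN1 or NRP1. EFNA2 in the first table, and SEMA5B and SEMA6A in the second, were under 1 FPKM in every library. Their pairs could therefore not be met. A transcript level says nothing of contact between ligand and receptor, and partners outside the tables were not analysed here.

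A further comparison concerns the 9 genes that were listed in both tables, DCC, NRP1, NTNG1, PLXNA4, RGMA, SEMA5A, SEMA6A, SLITRK3 and UNC5A. Their FPKM are given side by side, but the tables were fitted apart and no test runs between them. NRP1 was highest in U-87MG of the first table at 68.4 and 72.8 FPKM and in AM-38 of the second at 64.1 and 64.8, and lowest in LN-18 and SNU-466, at 6.15 and 5.56 FPKM and 8.82 and 8.88 FPKM. RGMA exceeded 1 FPKM in KNS-42, LN-229 and SNU-466, DCC in U-87MG alone, with LN-229 and AM-38 between 0.74 and 0.99, and UNC5A in both libraries of A-172 alone. SEMA5A was at 17.1 FPKM or more in both libraries of SNU-1105 and SNU-466.

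Genes acting downstream or beside these receptors were taken from 2 lists. Of 43 genes of guidance signalling, 6 were tested in the first table, where 2 were above every other line and 1 below, beside 42.4% and 10.9% of all tested genes. DPYSL5, a collapsin response mediator of growth cones, was above in KNS-42 with 13.1 and 14 FPKM, against 0.54 or less in every other library, the same line as GAP43. TIAM1, an activator of Rac, was above in LN-229 with 11.2 and 11.2 FPKM and below in KALS-1 with 0.15 and 0.07, against 1.05 to 3.61 in the libraries of the other lines. FYN, a kinase downstream of semaphorin and netrin receptors, had 39.7 and 43.9 FPKM in KNS-42 and 0.82 and 1.02 in LN-18, its highest and lowest lines, and NGEF, an exchange factor bound by EphA receptors, had 11.7 and 15.8 in KNS-42 and 0.09 and 0.1 in T98G. Neither was called apart in a line.

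Of these signalling genes, 18 were tested in the second table, with 12 above every other line in some line and 11 below, beside 64.8% and 60.7% of all tested genes. DPYSL3, another collapsin response mediator, was above in A-172 with 406 and 396 FPKM, against 29.9 and 29.7 in AM-38 and 1.52 and 1.42 in SNU-466. TRIO, an exchange factor for Rac, was above in AM-38 with 48 and 49 FPKM, against 16 and 16.1 in A-172 and 5.78 and 5.28 in SNU-466. RAC2, a Rac of blood cells, was below in SNU-466 with 0.11 and 0 FPKM, against 32.5 and 31.2 in A-172 and 51.9 and 48.5 in AM-38. DPYSL2, the founding collapsin response mediator, had 43.2 and 41.6 FPKM in SNU-466, 22.5 and 22.1 in A-172 and 18.8 and 19.8 in AM-38 and was called apart in no line.

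Of 46 other guidance cues and receptors, 10 were tested in the first table, with 6 above every other line and 0 below, beside 42.4% and 10.9% of all tested genes by edgeR. CHL1, an adhesion molecule of the L1 family, was above in KNS-42 with 16.3 and 13.6 FPKM, 1 of 3 genes called above there. NRCAM, of the same family, had 25.9 and 23.7 FPKM in KNS-42 and 12.6 and 22.6 in SNU-1105, and NFASC, also of that family, had 9.25 and 10.6 in SNU-1105 and 9.1 and 9.53 in U-138MG. There were 23 tested in the second table, with 19 above every other line in some line and 12 below, beside 64.8% and 60.7% of all tested genes. SNU-466 was above for 14 and below for 7, beside 32.3% and 45.9% of all tested genes. MCAM, an adhesion protein of vessels that also stands in the mural marker list, was above in SNU-466 with 212 and 216 FPKM, against 8.01 and 7.43 in A-172 and 0.18 and 0.17 in AM-38. PTPRS, a receptor phosphatase of axons, was above there with 44.6 and 45.9 FPKM, against 9.82 and 9.77 in A-172 and 13.5 and 12.6 in AM-38. VEGFC, a growth factor that binds NRP2, was above in A-172 with 34.3 and 35.2 FPKM and below in SNU-466 with 0.63 and 0.62, against 16.3 and 17.7 in AM-38. MET, a receptor tyrosine kinase that associates with plexins, was below in SNU-466 with 11.3 and 11.4 FPKM, against 34.2 and 34.3 in A-172 and 58 and 58.5 in AM-38.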

How the data were processed

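Gene-level read counts and FPKM of the 22 libraries were used as the authors deposited them, in 2 gene tables, with RNA taken up in TRIzol, poly(A) selection and strand-retaining libraries, per the labels' protocols. The deposited count values are whole reads per gene, and the deposited FPKM values are the authors' own, per gene length and library total. The submitters' processing notes name StringTie 1.3.3, HTSeq 0.6.0, HISAT2 2.2.1, FastQC 0.10.1 and cutadapt 1.9.1 and the hg38 build, without roles. The annotation release is not stated there. Symbols matched the names table for 2220 of 2221 and 5382 of 5383 genes.

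Library totals were recovered from counts, gene length and FPKM, since each table holds only part of a library, and served as library sizes. Each table was fitted apart with edgeR 4.0.16 in R 4.3.3 (quasi-likelihood test, genes kept by a minimum count of 10), after the code was tested on simulated data. The simulated libraries all had the same spread, so that test does not cover the wider spread between the T98G or SNU-1105 libraries. A line was called above or below every other line when its largest one-sided pairwise p, adjusted by Benjamini-Hochberg over all tested genes, was under 0.05 and its log2 fold change was at least 1 in size against each. Neighbouring lines in the order of a gene were tested with adjustment over all tested genes. Where a line was called apart, the printed adjusted p is that of the call, and the fold change beside it is against the nearest line. A count of 0 was taken to allow 3 reads, for counting error only. Alternatives were TMM and RLE factors, DESeq2 1.42.0, limma 3.58.1, no filter, a replicate block, each library left out, and, added after seeing the data, both T98G libraries left out.

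Same-numbered libraries of different lines did not deviate together. Named genes were those called in a line whose highest mean was at least 1 FPKM, the 2 highest per family and table, those in both tables, those at 0 reads in 3 or more lines with at least 5 FPKM in another, and DCC, GAP43, EPHA7 and NTNG1. EFNA2, SLITRK2, EPHA10 and SEMA5B were named after their values were seen. From each pathway list the 4 genes with the highest line mean among those that differed were named per table, and SYT1 and the marker lists stand beside results. The axon guidance genes, the pathway lists and the marker lists were chosen with earlier results of these data known. The 5 promoters printed were chosen after the levels were seen. Figures were drawn with Python 3.11.15 and matplotlib 3.10.9.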

Additional observations from a re-analysis of the deposited data

How the results depend on the processing

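Of the axon guidance genes of the first table, those that differed among lines, with a line above every other and with a line below every other numbered 23, 9 and 6. They numbered 23, 9 and 6 with TMM factors, 23, 8 and 6 with RLE factors, 23, 7 and 6 in DESeq2, 23, 7 and 7 in limma, 23, 9 and 6 without the filter, and 22, 9 and 7 without both T98G libraries. Leaving out each library in turn gave 7 to 9 above and 3 to 6 below, with 3 without LN-18 replicate 2. In the second table the 38, 21 and 28 became 38, 22 and 29 with TMM factors, 35, 22 and 29 with RLE factors, 38, 21 and 28 in DESeq2 and in limma, and 40, 23 and 28 without the filter, where EPHA10 and SEMA5B entered. Single libraries left out gave 21 to 23 above and 27 to 28 below. A line with a library left out keeps a lone library, which is assumed to vary like the other lines.

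Replicate numbers were checked for pairing: deviations of same-numbered libraries correlated at -0.0826 to 0.122 over 28 pairs of lines in the first table and -0.027 to 0.0823 over 3 in the second. With the replicate block the counts were 23, 9 and 6, and 38, 21 and 28.

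Of the fold changes of a gene's highest line over the next in the first table, 3 changed sign. Pairs further down the order were not recomputed. The log2 fold change of KALS-1 over T98G for EFNB1 was -0.0403 with RLE factors and -0.0182 to 0.72 with single libraries left out. That of SNU-1105 over U-138MG for PLXNA4 ran from -0.48 to 0.61 with single libraries left out, at -0.48 without SNU-1105 replicate 1 and -0.03 without U-138MG replicate 1. That of U-87MG over SNU-1105 for SEMA7A ran from -0.115 to 1.23. The cause was not tested. Without both T98G libraries SEMA7A in KNS-42, SLITRK5 in SNU-1105 and SLIT3 in LN-18 were called below every other line and EFNA2 in KALS-1 above, and limma called GAP43 below in T98G.

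Limits are the unstated choice of listed genes, 2 libraries per line of unstated origin, the wide spread between the T98G libraries and between the SNU-1105 libraries, and tables that hold part of each library. Log2 scaling factors ran from -0.58 to 0.30 (TMM) and -0.62 to 0.32 (RLE) in the first table, and from -0.09 to 0.12 and -0.24 to 0.28 in the second. At 3 FPKM or more, 58 gene and line combinations remained of 83 in the first table and 55 of 74 in the second.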
